A study of Homo sapiens with 5 samples.

Results

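The genes described here carry a symbol made of ZNF and a number, with or without a letter from A to D. Their FPKM (fragments scaled to transcript length and to library size), averaged over parental and persister cells, was at least 2. ZNF217 was left out by the same rule. Of 18510 gene symbols in the authors' deposited table, 305 met it, and 182 further ZNF genes lay below the minimum. The mean FPKM of the 305 members ran from 2.03 to 94.0 with a median of 5.21, and 241 of them (79.0%) lay under 10.

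BT474 is an established human breast cancer line of the luminal type with amplified HER2, and it is the only line in the study. Persister cells (3 libraries) were the cells left after 9 days with 2 µM lapatinib, which inhibits the kinases HER2 and EGFR, begun at 75% confluence and renewed with the medium every 3 days. Parental cells (2 libraries) were grown over the same period without the drug, and 0.01% DMSO was present in both groups. PolyA RNA of the same number of cells per replicate was made into libraries that do not keep strand.

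A C2H2 zinc finger is a short fold held by a zinc ion, and rows of such fingers read DNA, so most ZNF proteins are sequence-specific DNA-binding factors. Many carry a KRAB domain, which recruits the scaffold TRIM28 and, through it, the histone methyltransferase SETDB1 and HP1 proteins, and these silence the bound DNA. KRAB genes arose by tandem duplication, so they lie in clusters, most of them on chromosome 19, and many bind retroelements. A smaller number carry a SCAN domain, through which such proteins pair with each other, and others carry fingers alone.

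The authors' deposited table holds 1 FPKM value per gene and group, so no value below has an SD or n, and the depth of the libraries is unknown. Genes covered by the authors' test with a q-value of theirs under 0.05 are here called higher or lower. The difference of a gene is its log2(FPKM + 1) in persister cells minus that in parental cells, a scale that understates the change of low genes. In RNA from a whole culture, fewer cells with a transcript and less of it per cell cannot be told apart. Of 8 luminal epithelial markers, 5 were called lower and 2 higher, at levels that remained high: KRT8, KRT18, KRT19, EPCAM and CDH1 stood between 143 and 841 FPKM in parental cells and fell to between 89.6 and 623 FPKM after the drug. ERBB2, the gene of HER2, is listed at 0 in both groups in the authors' deposited table, and such a 0 may be a failed estimate. PTPRC, CD3E, COL1A2, PDGFRA, PDGFRB, DCN and PECAM1, which mark immune cells, fibroblasts and endothelium, stood at or below 0.0145 FPKM in both groups, CD14, CDH5 and VWF between 0.00344 and 0.592 FPKM, and the fibroblast marker COL1A1 at 13.4 and 8.73 FPKM. The luminal markers GATA3 and ESR1 rose from 14.1 to 43.3 FPKM and from 12.4 to 18.2 FPKM. What part these marker changes had in the differences below was not tested.

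More ZNF genes were higher than lower in persister cells. Of 300 tested members, 140 (46.7%) were called higher and 61 (20.3%) lower, and 99 were not called. Among all tested genes with a mean of at least 2 FPKM, 26.6% were called higher and 46.2% lower (72.8% in all), and among all 13615 tested genes 30.9% and 39% (69.9% in all). The median difference of the members was 0.16, with quartiles of -0.13 and 0.43. The ratio of persister to parental FPKM, taken for each member, had a median of 1.14. Over the other 9412 tested genes with a mean of at least 2 FPKM the median difference was -0.14. The summed FPKM of the members was 2194 in parental and 2450 in persister cells.

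Members were chosen on the mean of the same 2 columns, so these counts are a description. In 31 members only 1 group reached 2 FPKM, the parental group in 12 and the persister group in 19. Among the 270 tested members that reached 2 FPKM in both groups, 124 were called higher and 53 lower, with a median difference of 0.15.

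Most changes were small. Of the 201 called members, 123 differed by less than 0.5 on the log2(FPKM + 1) scale. A difference of 1 or more was reached by 6 called members upward and 2 downward, against 3.52% and 7.8% of all tested genes with a mean of at least 2 FPKM and 2.98% and 6.02% of all tested genes. As a ratio of FPKM, 20 members were at least 2 times as high in persister cells and 8 were at 0.5 times or less. The smallest called difference was that of ZNF148, at 0.14. ZNF207 had the largest difference among tested members without a call, with 78.4 FPKM before and 57.1 FPKM after the drug (q = 0.692 in the authors' deposited table).

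**Figure D1:**
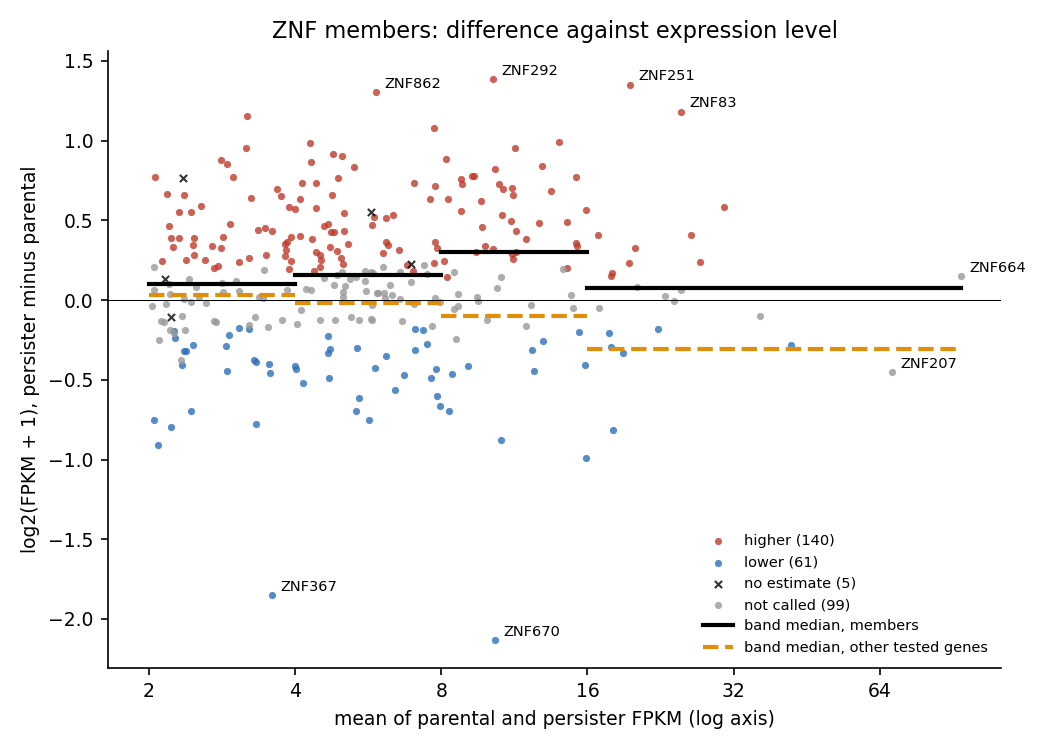
Each point is 1 of the 305 members, placed by its mean FPKM (log axis) and its difference in log2(FPKM + 1), persister minus parental, and coloured by its call. Black bars are the medians of the members in 4 bands of mean FPKM and dashed orange bars those of the other tested genes. The members' medians lie above 0 in all 4 bands, and ZNF670 and ZNF367 lie far below the other members.

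In each band of mean FPKM more members were called higher than lower. In the band from 2 to 4 FPKM, 44.6% of 101 tested members were called higher and 21.8% lower, beside 36.5% and 34.3% of the other genes in that band. From 4 to 8 FPKM the shares of 111 members were 42.3% and 19.8%, beside 33.3% and 34.9%. From 8 to 16 FPKM, where the members' median difference was highest at 0.30, the shares of 64 members were 59.4% and 17.2%, beside 26.9% and 42.7%. At 16 FPKM and over, 41.7% of 24 members were called higher and 25.0% lower, beside 18.3% and 59.8%. The members' medians were 0.10, 0.16, 0.30 and 0.07 from the lowest band to the highest, while those of the other genes went from 0.03 through -0.02 and -0.10 to -0.31.

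Among the other genes, then, the difference fell with the level, and the members showed no such slope. Across the 305 members the difference against log2 mean FPKM had a Pearson r of 0.05 and a Spearman rho of 0.07. Over the 9412 other genes the values were -0.19 and -0.24. All points share the same 2 columns, and the mean on one axis contains the values whose difference is on the other. Against the parental FPKM alone, the members' rho was -0.20, so the sign depends on which level is used. With bands set by parental FPKM, 7 members at 16 FPKM and over were called higher and 10 lower, while higher calls still outnumbered lower ones in the 3 bands below.

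**Figure D2:**
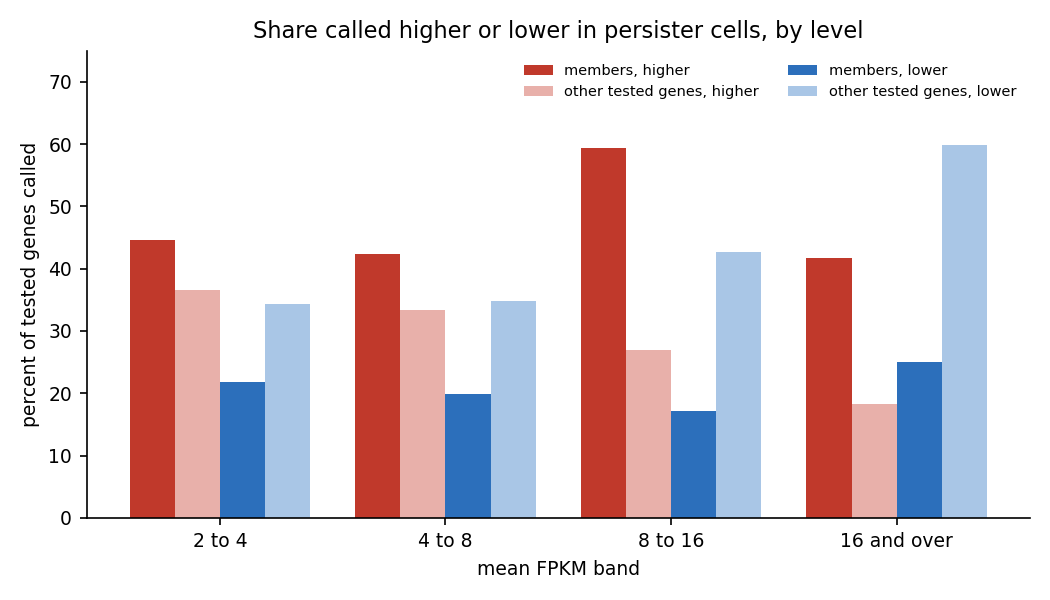
Bars give the percent of tested genes called higher (red) or lower (blue) in persister cells in 4 bands of mean FPKM, for the members (dark) and the other tested genes (light). The members' higher bar is the taller of the pair in each band, from 41.7% to 59.4%, while the other genes' lower bar grows from 34.3% to 59.8%.

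Transcript length moved with the difference as well. In members under 2000 nt, 24.3% of 37 were called higher and 35.1% lower, with a median of -0.05. In the 4 longer bands the share called higher lay between 47.3% and 54.3%, with medians from 0.15 to 0.19. The other genes' medians went from -0.34 under 2000 nt to 0.06 at 6000 nt and over. The median length was 3220 nt for the 297 members with a length and 2824 nt for the other genes. The part of length in the members' difference was not tested.

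The largest rise was that of ZNF292, a very large multi-finger protein, from 5.21 FPKM in parental to 15.3 FPKM in persister cells, a difference of 1.39. ZNF251 went from 10.6 to 28.6 FPKM, ZNF83 from 14.9 to 35.0 FPKM and ZNF250 from 1.59 to 4.77 FPKM. All 3 are KRAB factors. The paralogues ZNF33A and ZNF33B, a pair of KRAB genes, rose side by side, from 7.39 to 15.3 FPKM and from 4.60 to 10.8 FPKM. Of their 50-base stretches, 7.11% and 8.07% occur letter for letter in transcripts of other genes, mainly each other. Near matches were not counted, so reads placed on the wrong copy were not tested. ZNF740, which has neither domain, rose from 9.02 to 18.96 FPKM and ZNF528 from 2.54 to 6.03 FPKM. ZNF862 (2.95 and 8.77 FPKM) and ZNF763 (1.84 and 4.50 FPKM) complete the 10 largest rises, but 30.7% and 54.1% of their 50-base stretches also lie in other annotated genes, so their reads cannot be placed with certainty. The authors' deposited table lists a q-value of 0 for each of these 10 genes, as for 39 members in all.

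The largest fall was that of the KRAB factor ZNF670, from 17.4 FPKM in parental to 3.21 FPKM in persister cells, a difference of -2.13. ZNF367, a factor of proliferating cells, fell from 6.18 to 0.990 FPKM (-1.85). No other member fell by 1 or more. ZNF787 fell from 23.3 to 12.9 FPKM and ZNF710 from 7.40 to 3.98 FPKM. ZNF93, ZNF714, ZNF85 and ZNF100, which lie in 1 cluster on chromosome 19 described below, fell from between 2.83 and 4.47 FPKM to between 1.14 and 2.19 FPKM. The other two of the 10 largest falls share much sequence with annotated neighbours: ZNF593 (21.4 and 10.3 FPKM) has 85.0% of its 50-base stretches in other genes, and ZNF511 (14.04 and 7.18 FPKM) has 46.6%.

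The genes next to ZNF670 on chromosome 1 moved far less. ZNF124 fell from 18.2 to 13.4 FPKM, and ZNF669 stood at 15.2 and 14.6 FPKM without a call. These neighbours were chosen after their values were seen.

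**Figure D3:**
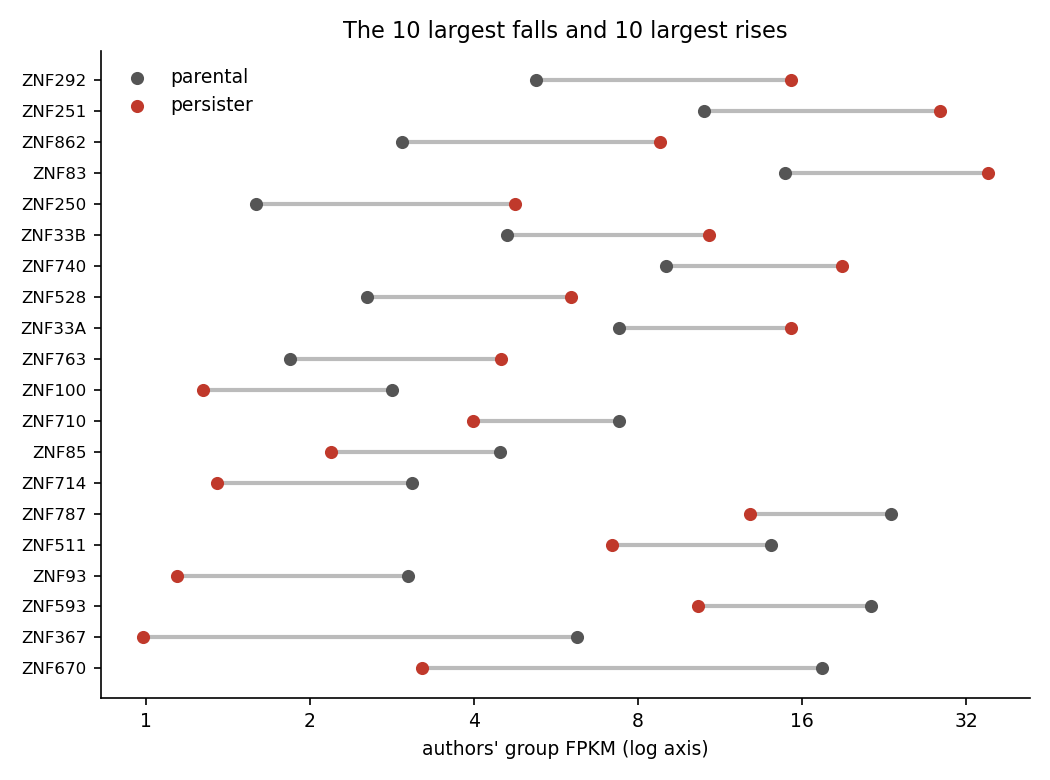
Grey points are the parental and red points the persister FPKM (log axis) of 20 members, those with the 10 largest rises and the 10 largest falls, joined by a line per gene. ZNF670 and ZNF367 have the longest lines among the falls, and ZNF292 goes from 5.21 to 15.3 FPKM.

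Of the 8 members with the highest mean, 4 were called higher, 1 lower and 3 not called. ZNF664 had the highest mean, with 89.1 FPKM in parental cells and 98.9 FPKM in persister cells, and was not called (q = 0.0858 in the authors' deposited table). ZNF207, given above, and ZNF24, a SCAN factor at 37.6 and 35.1 FPKM, were not called either. ZNF146, a short protein made of fingers alone, fell from 46.3 to 37.9 FPKM, a fall that turns to 0.066 higher when both columns are scaled to the same sum. ZNF83 rose by the most (difference 1.18), ZNF512B rose from 24.3 to 36.8 FPKM, ZNF652 from 22.3 to 29.9 FPKM and ZNF622 from 24.9 to 29.6 FPKM. At the other end, ZNF837 (2.07 and 1.99 FPKM), ZNF184 (1.98 and 2.11 FPKM) and ZNF222 (1.83 and 2.27 FPKM) lay just inside the minimum. ZNF416 (1.99 and 2.00 FPKM), ZNF431 (2.193 and 1.797 FPKM) and ZNF720 (2.49 and 1.49 FPKM) lay just outside it.

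Of the gene clusters, the 3 whose median difference lay farthest from 0 are described first, singled out after their values were seen. A cluster was taken as a run of ZNF genes with at most 5 other genes of the table between neighbours, and is named by its first and last ZNF gene. With at least 5 members each, 14 clusters held 161 members, and 8 of them lie on chromosome 19. Members in clusters had a median difference of 0.12 and those outside of 0.18. In the other 11 clusters the medians lay between -0.13 and 0.30, with calls in both directions in 8 of them.

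The cluster from ZNF101 to ZNF254 on chromosome 19 went down. Of its 12 members, 8 were called lower and 2 higher, with a median difference of -0.45. ZNF93 fell from 3.02 to 1.14 FPKM, ZNF714 from 3.08 to 1.35 FPKM, ZNF100 from 2.83 to 1.27 FPKM and ZNF85 from 4.47 to 2.19 FPKM. ZNF675 fell from 6.78 to 4.07 FPKM, ZNF253 from 4.28 to 2.84 FPKM, ZNF43 from 3.49 to 2.30 FPKM and ZNF101 from 3.85 to 2.74 FPKM. ZNF254 (3.34 and 3.40 FPKM) and ZNF506 (3.43 and 2.98 FPKM) were not called. The 2 that rose were ZNF91, from 3.35 to 4.26 FPKM, and ZNF14, from 2.30 to 2.92 FPKM. The same cluster holds 20 ZNF genes below the minimum of 2 FPKM, which had no part in choosing it. Of these, 16 were tested, 10 were called lower and 0 higher. The table holds no unadjusted p to set beside that 0. The 10 are ZNF90, ZNF486, ZNF737, ZNF430, ZNF431, ZNF257, ZNF98, ZNF492, ZNF681 and ZNF726. They are not independent of the members. The members ZNF714, ZNF91 and ZNF85 share more sequence with ZNF431, ZNF726 and ZNF681 than with any other gene. Sequence shared by genes below the minimum was not measured. Over all tested ZNF genes below the minimum, 57 of 126 (45.2%) were called higher and 26 (20.6%) lower.

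A related cluster on chromosome 7, from ZNF479 to ZNF92, had 5 members, of which 4 were called lower and 0 higher, with a median of -0.56. ZNF92 fell from 10.5 to 6.09 FPKM, ZNF680 from 9.66 to 6.01 FPKM, ZNF138 from 7.84 to 4.99 FPKM and ZNF107 from 7.03 to 5.29 FPKM. ZNF736 stood at 2.42 and 2.00 FPKM (q = 0.0544 in the authors' deposited table). Within this cluster lay 1 other gene, called lower (-0.21), and within the chromosome 19 cluster 0. With at most 10 genes between neighbours the runs were wider, ZNF713 to ZNF92 on chromosome 7 and ZNF101 to ZNF507 on chromosome 19. In these, 6 of 8 and 4 of 7 other tested genes were called lower, and 1 and 0 higher, with medians of -0.49 and -0.31. What part position had in the falls was not tested. Together the clusters on chromosomes 19 and 7 held 17 members, 12 called lower and 2 higher, with a median of -0.46. KRAB was found in 16 of the 17. Their transcripts share between 0 and 11.0% of 50-base stretches with other genes, with a median of 3.91%. With both columns scaled to the same sum the calls kept these directions and the median was -0.19.

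Most promoters of these genes resemble one another, and a few of those that do are printed here to show it. RefSeq promoters (250 bases before the start site to 50 after it, GRCh38.p14) were found for 263 of the 305 members, 15 of them in these 2 clusters. The median identity over the 105 pairs of those 15 was 74.3%, with a range from 44.3% to 83.7%. Over all 34453 pairs of member promoters it was 46.3%. The promoters of ZNF14, which rose, and ZNF101, which fell, were less alike. They reached at most 52.0% and 52.3% identity with any other of the 15. Capitals mark CCAAT, the core letters read by NF-Y, and CCGGAAG, an ETS motif, each searched on both strands, so a match on the minus strand is printed as its reverse complement. The motifs do not overlap one another.

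The first 2 lie on chromosome 19, at chr19:19900696-19900995 (plus strand) and chr19:20923001-20923300 (plus strand), the next 2 on chromosome 7, at chr7:65373605-65373904 (plus strand) and chr7:64563022-64563321 (minus strand). All 4 genes fell. The last, at chr19:23395422-23395721 (minus strand) on chromosome 19, belongs to ZNF91, which rose.
ZNF93: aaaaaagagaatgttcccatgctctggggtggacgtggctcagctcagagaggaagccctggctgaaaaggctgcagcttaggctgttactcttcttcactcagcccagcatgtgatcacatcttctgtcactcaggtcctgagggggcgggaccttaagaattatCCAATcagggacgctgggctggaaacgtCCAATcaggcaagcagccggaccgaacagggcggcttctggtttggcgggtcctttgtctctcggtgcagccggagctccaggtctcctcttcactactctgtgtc
ZNF85: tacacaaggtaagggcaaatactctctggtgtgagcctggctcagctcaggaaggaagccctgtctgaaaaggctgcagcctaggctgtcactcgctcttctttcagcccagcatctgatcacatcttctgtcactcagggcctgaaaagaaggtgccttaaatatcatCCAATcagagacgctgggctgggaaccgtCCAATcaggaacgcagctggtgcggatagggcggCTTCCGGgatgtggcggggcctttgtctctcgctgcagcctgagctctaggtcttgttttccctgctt
ZNF92: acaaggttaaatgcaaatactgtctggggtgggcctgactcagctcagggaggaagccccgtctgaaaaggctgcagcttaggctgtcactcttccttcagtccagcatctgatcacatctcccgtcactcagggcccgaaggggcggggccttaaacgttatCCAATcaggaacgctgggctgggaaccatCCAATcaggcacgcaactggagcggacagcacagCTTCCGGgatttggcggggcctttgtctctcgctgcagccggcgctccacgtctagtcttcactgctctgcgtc
ZNF680: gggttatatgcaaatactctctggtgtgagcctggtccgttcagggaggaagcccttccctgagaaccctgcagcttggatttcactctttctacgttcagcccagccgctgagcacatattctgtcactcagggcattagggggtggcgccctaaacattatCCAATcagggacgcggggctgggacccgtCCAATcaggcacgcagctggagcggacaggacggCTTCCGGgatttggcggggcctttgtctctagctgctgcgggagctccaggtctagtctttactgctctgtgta
ZNF91: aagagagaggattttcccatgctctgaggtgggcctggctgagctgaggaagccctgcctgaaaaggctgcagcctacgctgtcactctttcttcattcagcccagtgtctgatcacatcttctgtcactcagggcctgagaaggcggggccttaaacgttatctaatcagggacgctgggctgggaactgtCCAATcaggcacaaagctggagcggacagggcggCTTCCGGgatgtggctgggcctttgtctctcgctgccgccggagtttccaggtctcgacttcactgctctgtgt

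In ZNF85, ZNF92 and ZNF680 a pair of CCAAT motifs is followed by 1 ETS motif. Counted from 1 at the 5′ end of the window, the CCAAT motifs of ZNF92 and ZNF680 start at 164 and 193 and the ETS motif at 227, and those of ZNF85 start at 170, 199 and 233. ZNF93 has CCAAT at 167 and 195 and lacks the ETS letters. ZNF91 has the second CCAAT and the ETS motif at 193 and 227, and lacks the first CCAAT. The promoters of ZNF91 and ZNF93 are 83.0% identical, although ZNF91 rose and ZNF93 fell.

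All 15 promoters of these clusters hold CCAAT (100%). So do 55.7% of the 167 promoters of KRAB members, 48.3% of the 263 member promoters and 35.7% of all 27305 promoters. The ETS motif is in 11 of the 15 (73.3%), in 45.5% of promoters of KRAB members and in 41.4% of member promoters. It is in 21.6% of those of tested genes with a mean of at least 2 FPKM and in 10.7% of all. A pair of CCAAT motifs starting 29 bases apart on 1 strand, a spacing chosen after these sequences were seen, is in 8 of the 15 promoters. The 8 belong to ZNF43, ZNF85, ZNF92, ZNF107, ZNF138, ZNF675, ZNF680 and ZNF714, which all fell. The pair is in 0.304% of all promoters, in 6.59% of those of KRAB members and in 12 of the 263 member promoters (4.56%). Of the 12, 10 belong to members called lower and 1 to a member called higher. The 12 include those 8, so these counts lend no separate support. ZNF93, ZNF100 and ZNF101 of the same clusters were called lower too, and their promoters lack the pair. The median number of CG dinucleotides was 10 in the 15 promoters, 23 over member promoters and 14 over all. These genes are duplicates of one another, so their promoters are not independent, and a match of letters does not show a bound site.

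The third cluster, from ZNF251 to ZNF16 on chromosome 8, went up. Of its 6 members 5 were called higher and 0 lower, with a median of 0.82. ZNF251 rose from 10.6 to 28.6 FPKM, ZNF250 from 1.59 to 4.77 FPKM and ZNF517 from 3.18 to 6.83 FPKM. ZNF34 rose from 2.86 to 5.41 FPKM and ZNF7 from 14.3 to 19.4 FPKM. ZNF16 stood at 5.55 and 6.58 FPKM (q = 0.0517 in the authors' deposited table). Of the 2 other genes of the table within the cluster, 1 was called lower and 0 higher, and their median was -0.17. Over all 13 members on chromosome 8, 10 were called higher and 1 lower, but the 10 include the 5 of this cluster. Shares of the other genes on chromosome 8 are not given.

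**Figure D4:**
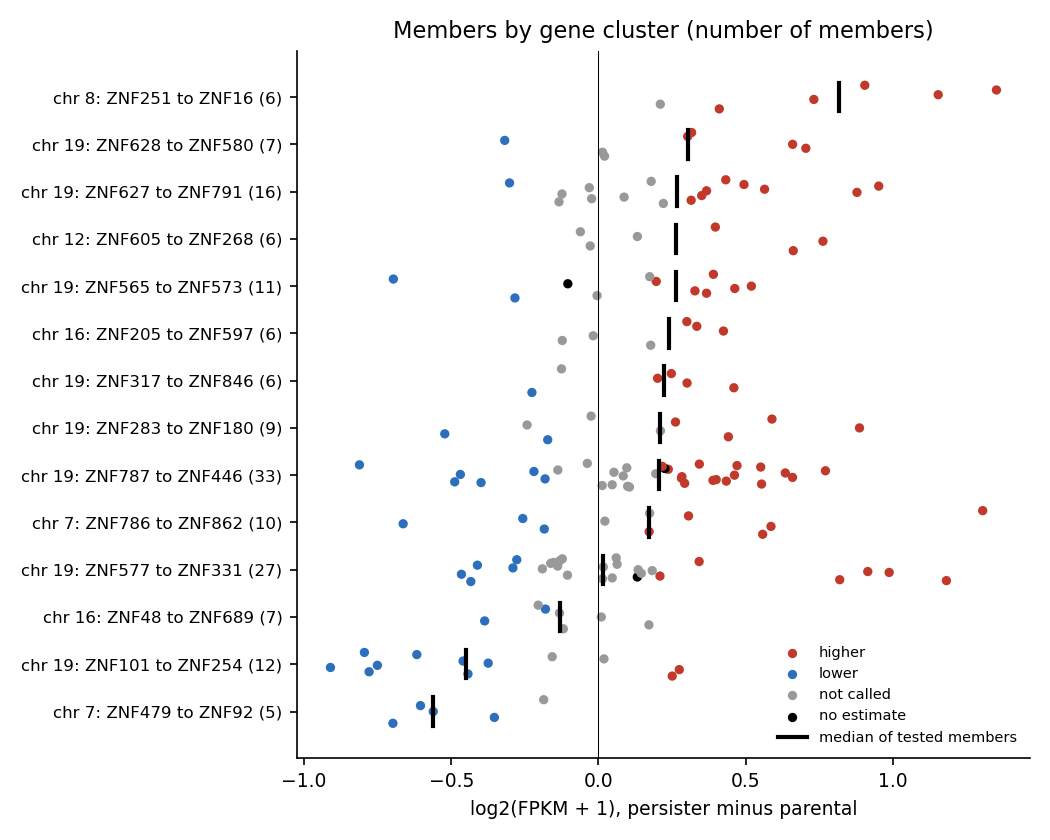
Each point is a member of 1 of the 14 clusters, placed by its difference in log2(FPKM + 1), persister minus parental, and coloured by its call, with black bars at the median of the tested members. Clusters are sorted by that median, from 0.82 on chromosome 8 at the top to -0.45 and -0.56 for the clusters on chromosomes 19 and 7 at the bottom.

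Of the other clusters, 3 had calls in 1 direction. In ZNF605 to ZNF268 on chromosome 12 and in ZNF205 to ZNF597 on chromosome 16, 3 of 6 members each were called higher and 0 lower, and in ZNF48 to ZNF689 on chromosome 16, 2 of 7 were called lower and 0 higher. The largest cluster, from ZNF787 to ZNF446 on chromosome 19, had 33 members, 16 called higher and 6 lower, with a median of 0.21. The one from ZNF577 to ZNF331 on chromosome 19 had 27 members, 6 called higher and 5 lower, with a median of 0.02. It held both ZNF83 (1.18), ZNF528 (0.99), ZNF577 (0.92) and ZNF160 (0.82) and the falling ZNF468 (-0.47), ZNF28 (-0.43) and ZNF649 (-0.41), all as log2 differences. In the one from ZNF627 to ZNF791, also on chromosome 19, 8 of 16 members were called higher and 1 lower. All 16 have KRAB. In the cluster from ZNF283 to ZNF180, 4 of 9 members were called higher and 2 lower, and of the 8 tested genes below the minimum 7 were called higher.

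Of 140 members on chromosome 19, 60 were called higher and 27 lower, with a median of 0.13. Other tested genes on that chromosome with a mean of at least 2 FPKM had a median of -0.22, with 20.9% called higher and 52.2% lower. The 165 members elsewhere had a median of 0.17, with 80 called higher and 34 lower.

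The domains of the encoded proteins were read from translated transcripts. KRAB was found in 192 members, 116 of them on chromosome 19, and SCAN without KRAB in 8, while 105 had neither. Among 188 tested KRAB members, 95 (50.5%) were called higher and 34 (18.1%) lower, with a median difference of 0.20. Among 104 tested members with neither domain, 42 (40.4%) were called higher and 27 (26.0%) lower, with a median of 0.06. Outside chromosome 19 the medians were 0.25 for 75 KRAB members and 0.06 for 81 members with neither. The difference between the classes was not tested. All 5 KRAB members with a mean of 16 FPKM or more were called higher, among them ZNF251, ZNF83, ZNF3 (17.6 and 22.4 FPKM) and ZNF7. That mean includes the persister value. In parental cells ZNF251 (10.6 FPKM), ZNF83 (14.9 FPKM) and ZNF7 (14.3 FPKM) lay under 16 FPKM. The KRAB members ZNF124 (18.2 and 13.4 FPKM) and ZNF670 (17.4 and 3.21 FPKM) lay above it in parental cells. Both were called lower and had a mean below it, so the count depends on the level used.

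Of the 8 members with SCAN and no KRAB, 3 were called higher and 0 lower. ZNF397 rose from 6.63 to 12.1 FPKM, ZNF500 from 3.36 to 6.43 FPKM and ZNF165 from 2.14 to 2.81 FPKM. Counting also those with KRAB, 9 of 17 SCAN members were called higher and 1 lower, with a median of 0.25. By number of fingers, 38.2% of 34 tested members with 0 to 3 were called higher and 29.4% lower, 54% and 13% of 100 with 4 to 9, 42.6% and 27.7% of 94 with 10 to 14, and 45.8% and 16.7% of 72 with 15 or more. Their medians were 0.027, 0.21, 0.13 and 0.18, with no steady order (Spearman rho 0.029 over the 305 members).

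**Figure D5:**
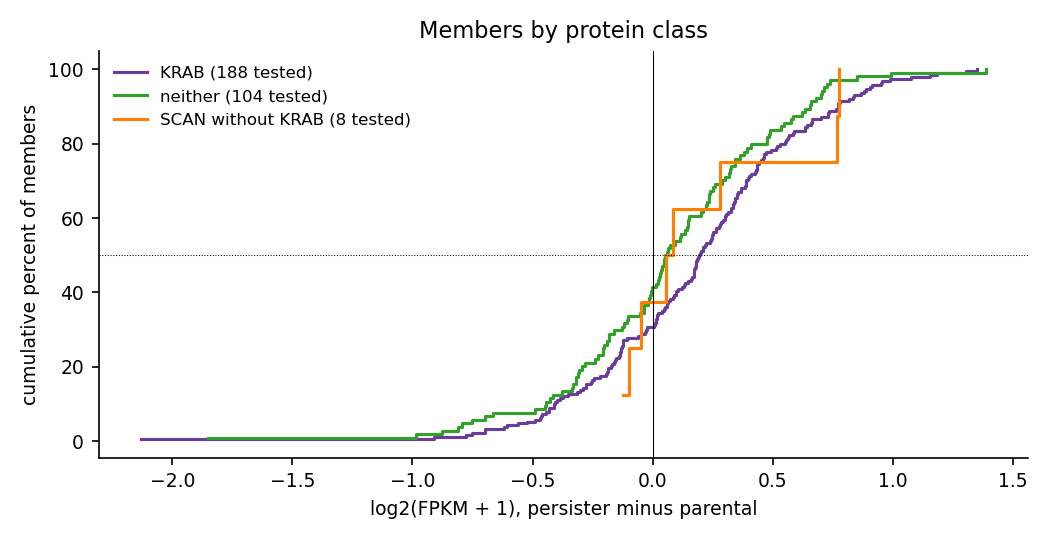
Lines give the cumulative percent of tested members against the difference in log2(FPKM + 1), persister minus parental, for KRAB members (188), members with SCAN and no KRAB (8) and members with neither (104). The KRAB line crosses 50% at 0.20 and the line of members with neither at 0.06.

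ZNF genes with a described role were grouped in 6 lists, counted here whatever their level, so some are not members. Over all tested members 46.7% were called higher and 20.3% lower, and over all tested genes with a mean of at least 2 FPKM 26.6% and 46.2%. Of 12 genes whose proteins work with chromatin complexes, 8 were called higher and 0 lower, with a median of 0.28. ZNF462, ZNF516 and ZNF532, called higher, and ZNF827, not called, lay below the minimum. ZNF292 rose as given above. ZNF512B, a partner of the NuRD remodelling complex, rose from 24.3 to 36.8 FPKM, ZNF687 from 6.83 to 8.83 FPKM, and ZNF644, a partner of the H3K9 methyltransferases G9a and GLP, from 8.98 to 11.5 FPKM. Of 7 genes grouped as promoter factors, 4 were called higher and 1 lower. ZNF219 rose from 5.65 to 9.90 FPKM and ZNF76, a paralogue of ZNF143, from 10.1 to 12.3 FPKM, while ZNF143 itself read 5.47 and 5.74 FPKM without a call. ZNF281 fell from 5.32 to 4.12 FPKM. ZNF384 was called higher (13.4 and 15.6 FPKM), but 48.9% of its 50-base stretches lie in other annotated genes.

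Of 6 co-repressors and breast cancer genes, 3 were called higher and 1 lower. ZNF704 rose from 10.4 to 15.0 FPKM, ZNF652, a co-repressor that works with CBFA2T3, from 22.3 to 29.9 FPKM, and ZNF395 from 7.65 to 13.3 FPKM. For ZNF395, 41.7% of its 50-base stretches are shared, mainly with FBXO16. ZNF703, a breast cancer oncogene of the luminal type, stood at 24.4 and 25.5 FPKM without a call. ZNF503, a relative of ZNF703, fell from 6.85 to 4.84 FPKM.

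Factors of RNA, ribosomes and ubiquitin were mixed, with 2 of 10 called higher and 3 lower. ZNF622, which acts in maturation of the large ribosomal subunit, rose from 24.9 to 29.6 FPKM, while ZNF593, a factor of the same pathway, fell as given above. ZNF598, the ubiquitin ligase that marks stalled ribosomes, fell from 16.5 to 14.2 FPKM, and ZNF106 from 9.07 to 6.17 FPKM. ZNF326 rose from 17.9 to 21.2 FPKM.

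Of 4 genes of mitosis and the cell cycle, 3 were tested, 2 were called lower and 0 higher. ZNF367 fell as given above. Its promoter, at chr9:96418321-96418620 (minus strand), is printed because it holds an E2F motif, TTTCCCGC, whose letters stand in the promoters of 2.28% of members, 2.73% of tested genes with a mean of at least 2 FPKM and 1.66% of all genes. Capitals mark it, on the minus strand at 230, and CCAAT at 66 and, on the minus strand, at 143.
ZNF367: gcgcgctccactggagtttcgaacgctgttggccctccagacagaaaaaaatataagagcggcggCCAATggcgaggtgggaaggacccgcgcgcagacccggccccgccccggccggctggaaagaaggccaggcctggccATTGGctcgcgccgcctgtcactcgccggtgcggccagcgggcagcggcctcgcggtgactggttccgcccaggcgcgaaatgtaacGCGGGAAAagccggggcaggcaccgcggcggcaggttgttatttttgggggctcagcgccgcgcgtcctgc
ZNF639 fell from 13.7 to 10.9 FPKM, and the same gene is 0.019 higher when both columns are scaled to the same sum. ZNF207, whose protein carries the checkpoint factor BUB3 to kinetochores, was not called, and ZNF655 is listed at 0.00228 and 0.0151 FPKM without a test.

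KRAB factors known to bind retroelements were split. Of 8 such genes, 7 were tested, 2 were called higher and 3 lower. ZNF91, which silences SVA elements, rose from 3.35 to 4.26 FPKM, while ZNF93, which silences L1 elements, fell from 3.02 to 1.14 FPKM. ZNF274, which guides SETDB1 to the ends of other ZNF genes, fell from 5.66 to 3.75 FPKM and ZNF649 from 4.69 to 3.28 FPKM. ZNF649 shares 7.66% of its 50-base stretches with other genes, mainly its antisense transcript, and without strand those reads cannot be told apart.

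The cofactors of KRAB repression went in both directions. Of 14 genes 12 were tested, 3 (25%) were called higher and 5 (41.7%) lower, with a median of -0.08. These shares are near those of all tested genes with a mean of at least 2 FPKM, 26.6% and 46.2%. TRIM28, the scaffold that KRAB binds, fell from 137 to 111 FPKM, and the HP1 genes CBX1 and CBX3 from 35.2 to 20.5 FPKM and from 156 to 103 FPKM. HDAC2, a deacetylase, fell from 27.0 to 15.1 FPKM. SETDB1, the methyltransferase recruited by TRIM28, rose from 8.42 to 13.2 FPKM, CHD4 of NuRD from 38.4 to 46.2 FPKM, and MPHOSPH8, a subunit of the HUSH silencing complex, from 8.39 to 10.3 FPKM.

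Zinc finger genes of other symbols were also called higher more often than lower. Of 77 tested genes of the ZBTB, ZKSCAN, ZSCAN and ZFP series, 52 were called higher and 2 lower, with a median of 0.27. These counts, and those by series below, have no minimum of FPKM. With a mean of at least 2 FPKM, 36 of 55 were called higher and 2 lower, with a median of 0.31. In ZBTB, whose proteins join fingers to a BTB dimerisation domain, 24 of 39 were called higher and 2 lower: ZBTB25 rose from 1.60 to 5.26 FPKM, while ZBTB7C fell from 16.7 to 8.67 FPKM. In ZKSCAN, with both KRAB and SCAN in most members, 6 of 7 were called higher, with ZKSCAN8 going from 3.75 to 10.7 FPKM. In ZSCAN 12 of 16 were called higher and 0 lower, and ZSCAN30 rose from 2.26 to 4.85 FPKM. In ZFP 10 of 15 were called higher and 0 lower, and ZFP14 rose from 1.16 to 2.59 FPKM. The ZFP series includes ZFP36, an RNA-binding factor that is no C2H2 protein.

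Related ZNF genes share sequence, so reads can be split between copies. In 42 members at least 20% of the 50-base stretches of the transcripts occur in transcripts of another gene, and of the 40 tested among them 24 were called higher and 8 lower. In 191 members the share was under 5%, and of the 188 tested among these 86 were called higher and 40 lower, with a median of 0.15. Scaling also matters, since the median of all genes with at least 1 FPKM in both groups was -0.12. Relative to it, the members' median was 0.28, and no called member changed direction. With both columns scaled to the same sum of FPKM, 158 called members were higher and 43 lower, and the median was 0.48. Under that scaling the calls among the other genes with a mean of at least 2 FPKM went from 2443 higher and 4425 lower to 3414 and 3454, and their median to 0.18.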

How the data were processed

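RNA sequencing of parental (2 libraries) and persister (3 libraries) BT474 cells was analysed from 1 table of 18803 rows. The build is hg18 and the tools were Cuffdiff 2.0.2, TopHat2 2.0.6, CASAVA 1.8 and Cufflinks, per the submitters' processing notes. FPKM values were deposited by the authors as 1 value per group, per the file headers, and no source used here gives the scaling between libraries. In the authors' deposited table the q-value is their own adjusted p-value, and its adjustment is not stated. The deposited fold change was used to find rows with no estimate. The labels call the libraries biological replicates. Values per library are not analysed here, so depth and replicate spread are unknown and no test was run.

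Where a symbol had several rows, that of highest mean was kept. Calls required a q-value under 0.05 (tested genes have a q-value below 1), and differences used a pseudocount of 1. In ZNF248, ZNF347, ZNF512, ZNF566 and ZNF587 the q-value and fold were set to 1 although the FPKM values differed, so these 5 members have no estimate and are left out of counts of tested members. Protein classes were read with profile models (pyhmmer 0.12.3, E-value under 1e-05) from translated GENCODE 29 transcripts, in place of a RefSeq protein table. Gene order and promoters come from RefSeq GRCh38.p14, not the authors' build, so positions are given for promoters only. Shared sequence is the percent of 50-base stretches found in transcripts of other genes on either strand. The promoter search used 8 motifs. The script was tested on simulated data.

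Named genes are the 10 largest called rises and falls, the 8 highest means, 4 per protein class, 3 on each side of the minimum and up to 4 per role list, and others were chosen after their values were seen. Members, lists and rules were chosen with earlier results of these data known. ZNF259, on a role list, was not matched. Alternatives covered thresholds, pseudocount, scaling, level measure, clusters and shared sequence.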

Additional observations from a re-analysis of the deposited data

How the results depend on the processing

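No paired analysis was possible because the table holds 1 value per group, and leaving out a library could not be run for the same reason. Of 250 recomputed values, 192 kept their direction and lay within 1.5 times the reported value, 54 kept the direction and moved further, and 4 turned. Requiring a difference of at least 1 left 6 members higher and 2 lower, and a mean of at least 5 FPKM left 72 and 33, since fewer genes qualify. Relative to the all-gene median, the median difference was 0.28 for all members, 0.31 for KRAB members, 0.19 for SCAN without KRAB and 0.17 for neither. With columns scaled to the same sum it was 0.48 for all members, and 18 members called lower turned, ZNF146 to 0.066 and ZNF639 to 0.019, while the cluster ZNF48 to ZNF689 went from -0.13 to 0.16. With bands set by parental FPKM, 10 rather than 6 members at 16 FPKM and over were lower and 7 rather than 10 higher, which turns the excess of higher calls in that band. The rho of difference against level was 0.044 with a pseudocount of 0.1 and -0.20 against parental FPKM. The cause of these shifts was not tested. The settings for single genes and clusters, for shared sequence and for calls under equal sums were added after seeing the data.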

Other observations

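Among ZNF genes below the minimum, the largest difference was that of ZNF516, a corepressor partner listed with the chromatin factors, which rose from 0.420 to 2.61 FPKM (difference 1.35). ZNF345 rose from 1.18 to 2.72 FPKM and ZNF284 from 0.577 to 1.55 FPKM. ZNF732 fell from 1.83 to 0.442 FPKM and ZNF519 from 2.45 to 1.19 FPKM. Over the 126 tested genes of this kind the median difference was 0.11, and 7 of the 182 are listed at 0 in both groups.

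The 5 members without an estimate had FPKM values that differed by unlike amounts: ZNF512 read 1.48 and 3.22 FPKM, ZNF248 read 4.47 and 7.02 FPKM, ZNF587 read 6.30 and 7.54 FPKM, ZNF347 read 2.01 and 2.30 FPKM and ZNF566 read 2.34 and 2.10 FPKM.

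Outside the clusters ZNF101 to ZNF254 and ZNF479 to ZNF92, 9 tested members had fewer than 12 CG dinucleotides in their promoter. Of these, 5 were called higher and 1 lower. Among 803 other tested genes with as few, 34.2% were called higher and 40.2% lower. The part of CG dinucleotides in the calls was not tested.

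By chromosome, members differed in direction, and the 4 chromosomes given here were picked after their values were seen. Over all tested members 46.7% were called higher and 20.3% lower. Among all tested genes with a mean of at least 2 FPKM the shares were 26.6% and 46.2%. Shares of the other genes on these 4 chromosomes are not given. On chromosome 1, 6 of 15 members were called higher and 7 lower, with a median of -0.05. On chromosome 15, 1 of 6 was called higher and 4 lower. On chromosome 20, 4 of 5 were called higher and 0 lower, with a median of 0.58, and on chromosome 12, 6 of 11 were higher and 0 lower.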
